A study of Mus musculus with 4 samples.

Results

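E-box regulators are the proteins that bind the short DNA element CANNTG, or that keep others from binding it. The 9 genes described here are 3 E-protein genes (Tcf3, Tcf12 and Tcf4), 2 ID inhibitor genes (Id2 and Id3), the zinc finger repressor genes Zeb1 and Zeb2, and the genes of the basic helix-loop-helix repressors BHLHE40 and MSC. They were taken by gene symbol from the 24312 genes of the deposited table, and all 9 were found. They were chosen by their known roles, with the fragment counts and FPKM of these 4 libraries in view, so the choice was made on the same measured values, and therefore the difference between the groups is given for each of them as a description, without a p-value. Poly(A) RNA was sequenced from P14 CD8 T cells, which carry a transgenic T cell receptor for the gp33 peptide of lymphocytic choriomeningitis virus, on a C57BL/6 background. All cells were activated with 100 ng/ml gp33 for 1 day and then spin-transduced with the retrovirus MSCV-IRES-GFP (MIG) or with MIG carrying BATF, a transcription factor that pairs with JUN proteins. Activation went on for 1 day, 10 ng/ml IL-2 expanded the cells over 2 days, and sorted CD8+ GFP+ cells spent 2 more days in 1 ng/ml IL-2. Each group had 2 libraries, called biological replicates in the design. No label says whether they came from separate mice, and p-values measure only the spread between these libraries.

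E proteins bind DNA as dimers through a basic helix-loop-helix domain and mostly activate transcription. ID proteins have the helix-loop-helix but lack the basic region, so a dimer of an ID and an E protein cannot bind DNA. In CD8 T cells ID2 is known for supporting effector cells and ID3 for its expression in cells that become long-lived memory cells, while ZEB2 acts with T-bet in terminal effector cells.

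The libraries held 19004726 to 24795707 fragments. Batf, the overexpressed gene, stood at 36.1 and 26.5 CPM, the fragment count scaled to library size, in MIG and at 1342 and 934 CPM in BATF (log2 fold change 5.18 ± 0.24 SE). Fragments of the vector and of the cells' own gene were not separated. The defining CD8 T cell genes were high in all 4 libraries, with Cd8a at 659 and 750 CPM in MIG and 423 and 599 CPM in BATF, and Cd3e at 400 to 477 CPM, while Cd4 lay between 0.490 and 0.791 CPM. Summed over 10 CD8 T cell markers the level was 5412 to 5478 CPM in MIG and 4558 to 5042 CPM in BATF. EdgeR called 0 of the 10 and DESeq2 0, while without adjustment 3 had p under 0.05, each lower (Cd8a, Cd3e and Cd8b1, the last named after its values were seen). Over all 13008 genes tested, 870 higher and 532 lower genes had p under 0.05 without adjustment, against which this and later counts of that kind are to be read. The difference in Cd8a did not pass (log2 fold change −0.46, edgeR adjusted p = 0.337), nor did that in Cd3e (−0.20, edgeR adjusted p = 0.374). The symbol Tcf3 here denotes the E2A gene, since the table lists Tcf7l1, which older papers call TCF-3, separately and at no more than 1.12 CPM. In bulk RNA, a change in the share of cells with a transcript and a change in its amount per cell cannot be told apart.

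Msc was the 1 gene of the 9 that passed the test across all genes (edgeR's quasi-likelihood test on 13008 genes, adjusted p under 0.05). That call was made on the values Msc was chosen on, and Msc passed the filter on low counts only with the BATF libraries, so it is a description like the other values. Msc was almost silent in MIG and rose with BATF. Over all genes tested, 1.09% passed, 115 genes upward (0.884%) and 27 downward (0.208%). Because the 9 genes were chosen with these values known, nothing is read from their count. Other settings called 0 to 4 of the 9, against their own background. Msc alone was called with DESeq2's size factors in edgeR (1.12% of all genes), with limma on log2(FPKM + 0.1) (0.623%), without MIG replicate 1 (1.79%) and without BATF replicate 2 (1.79%). Msc and Bhlhe40 were called by DESeq2 (2.96%) and with no filter on low counts (1.53%), Msc and Id2 without BATF replicate 1 (2%), and Msc, Bhlhe40, Id2 and Tcf3 (lower) without MIG replicate 2 (4.27%). Limma on log2(FPKM + 1) called none of them (0.338%). In 6 of the 9 the groups did not overlap, with the BATF pair 5 times above the MIG pair (Id2, Tcf4, Zeb2, Bhlhe40 and Msc) and 1 time below it (Id3). Such a lack of overlap was found in 38.7% of all tested genes (19.2% above and 19.4% below). The median log2 fold change of the 9 genes was 0.26, which is the value of Tcf4, and that of all genes tested was −0.01. Nothing is read from the difference of these medians either, since the 9 genes were chosen on the same values. Log2 fold changes are BATF over MIG with their standard error (SE) from the edgeR fit, and CPM are scaled with edgeR's TMM factors (trimmed mean of M values).

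**Figure D1:**
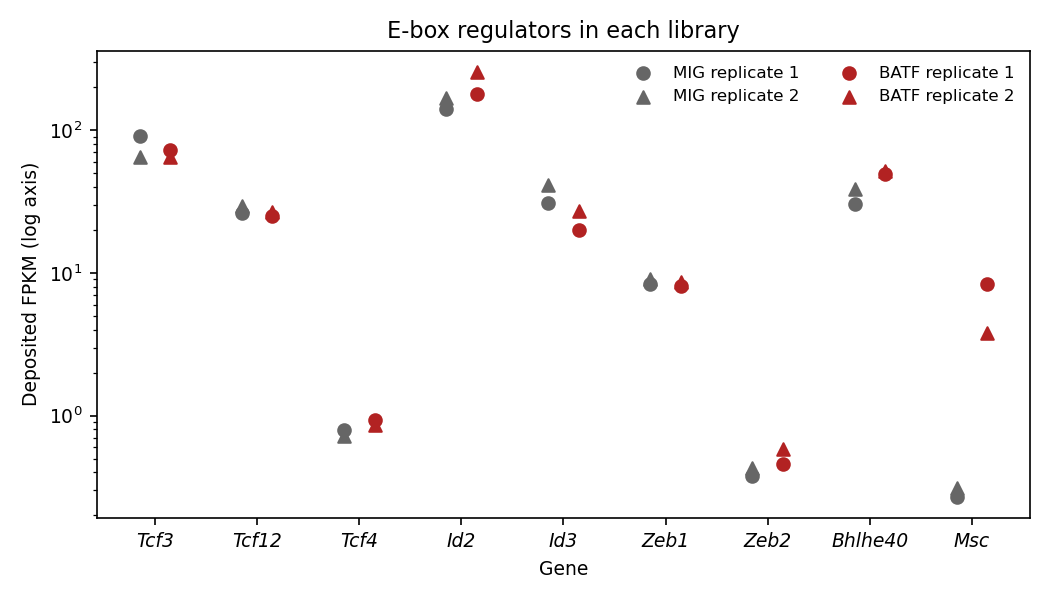
Deposited FPKM (log axis) of the 9 genes in each library, with grey symbols for MIG, red symbols for BATF, circles for replicate 1 and triangles for replicate 2. Msc lies at 0.270 and 0.309 FPKM in MIG and at 8.40 and 3.78 FPKM in BATF, and no other gene is displaced by a comparable distance.

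The E proteins came first. Tcf3, which encodes the E2A proteins E12 and E47, stood at 282 and 210 CPM in MIG and at 232 and 205 CPM in BATF. The groups overlapped, and MIG replicate 1 was the highest library. The log2 fold change was −0.17 ± 0.15 SE, and its sign turned to 0.058 without MIG replicate 1. The table does not separate the E12 and E47 transcripts.

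Tcf12, which encodes HEB, stood at 115 and 134 CPM in MIG and at 114 and 118 CPM in BATF, overlapping, with a log2 fold change of −0.11 ± 0.10 SE. It was 0.0036 without MIG replicate 2. RefSeq's promoter table (build GRCm38.p6, 250 bases before to 50 bases after a start) lists 3 start sites of Tcf12. Windows were searched for only 5 of the 9 genes, with 10 start sites. The second of Tcf12 is shown because it is 1 of 2 such windows with TGANTCA, printed in capitals. TGANTCA is the AP-1 element, the kind of site that BATF and JUN proteins bind. The window lies at chr9:72111152-72111451, minus strand.
Tcf12 start site 2: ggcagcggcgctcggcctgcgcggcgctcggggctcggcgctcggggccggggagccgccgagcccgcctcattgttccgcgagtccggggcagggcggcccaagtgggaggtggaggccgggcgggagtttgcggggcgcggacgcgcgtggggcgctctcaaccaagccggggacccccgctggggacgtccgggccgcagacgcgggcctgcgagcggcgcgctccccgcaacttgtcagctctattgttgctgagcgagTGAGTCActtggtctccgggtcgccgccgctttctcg
It held another E-box match, CAAGTG, at −149 to −144 from the start. The match TGAGTCA covers bases 14 to 20 after the start and shares its last bases with an E-box match, CACTTG, at 19 to 24. The 300-base windows of 7.81% of all 32851 start sites in the table hold TGANTCA on either strand. A match in these letters is a description and no measured binding site.

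Tcf4, which encodes E2-2, the E protein of plasmacytoid dendritic cells, was low, with 136 and 108 MIG fragments against 129 and 133 BATF fragments. In CPM this is 5.56 and 5.24 against 6.80 and 6.11. The groups did not overlap, although the difference was small (log2 fold change 0.26 ± 0.18 SE). Counting error alone spans 4.66 to 6.57 CPM for MIG replicate 1 and 5.12 to 7.24 CPM for BATF replicate 2 (95% exact Poisson intervals). These neighbouring libraries were thus not separable at this depth. The symbol denotes E2-2 and not TCF7L2, whose gene Tcf7l2 is listed separately.

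The ID genes were both well expressed and lay on opposite sides. Id2 stood at 152 and 187 CPM in MIG and at 198 and 278 CPM in BATF. Both BATF libraries lay above both MIG libraries, and BATF replicate 2 was 1.41 times BATF replicate 1, as large a factor as that between the groups (1.41, log2 fold change 0.49 ± 0.17 SE). The log2 fold change lay between 0.22 without BATF replicate 2 and 0.72 without BATF replicate 1. Id3 stood at 23.2 and 32.3 CPM in MIG and at 15.4 and 20.8 CPM in BATF. Here both BATF libraries lay below both MIG libraries, with a log2 fold change of −0.61 ± 0.21 SE and values from −0.85 to −0.36 with 1 library left out. Within each group, the library with more Id2 also had more Id3. Neither gene passed the test across all genes.

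With Id2 higher and Id3 lower in BATF, their ratio within each library separated the groups more widely than either gene did. Per length, there was 4.60 and 4.05 times as much Id2 as Id3 mRNA in the MIG libraries and 9.01 and 9.37 times as much in the BATF libraries (FPKM ratios of 4.32 ± 0.385 and 9.19 ± 0.257, SD, n = 2 per group). Id2 made up 82.1% and 80.2% of the summed ID FPKM in MIG and 90.0% and 90.4% in BATF. The 2 libraries of a group were close to each other in this ratio and the groups were far apart. The pair was picked with these values in view, and dividing a higher gene by a lower one widens the gap by construction. The gap in the ratio is therefore no result beyond the values of the 2 genes. No test is given, because the ratio comes from the same contrast, and with 2 libraries against 2 an exact two-sided permutation test could not go below 0.333.

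The promoters of this pair are shown because the 2 genes encode the same kind of inhibitor and differed in opposite directions. The Id2 window lies at chr12:25096043-25096342, minus strand, and the Id3 window at chr4:136143572-136143871, plus strand (both GRCm38.p6, RefSeq), with E-box matches (CANNTG, which reads the same on both strands) in capitals.
Id2: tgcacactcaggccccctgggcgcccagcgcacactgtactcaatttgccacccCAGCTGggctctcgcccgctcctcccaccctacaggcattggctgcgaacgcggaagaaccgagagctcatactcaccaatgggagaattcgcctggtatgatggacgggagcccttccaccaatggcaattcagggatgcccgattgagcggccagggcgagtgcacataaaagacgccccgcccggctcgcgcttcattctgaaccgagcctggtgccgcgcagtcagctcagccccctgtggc
Id3: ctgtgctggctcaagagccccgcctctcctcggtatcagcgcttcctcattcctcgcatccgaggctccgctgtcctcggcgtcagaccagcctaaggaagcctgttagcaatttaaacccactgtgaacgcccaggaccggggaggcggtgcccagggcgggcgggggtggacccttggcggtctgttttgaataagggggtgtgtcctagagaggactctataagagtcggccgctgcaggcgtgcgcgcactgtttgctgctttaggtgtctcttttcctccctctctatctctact
Id2 held 1 match, CAGCTG, at −196 to −191 from the start, and Id3 held 0. Of all start sites in the table, 72.3% had at least 1 such match in their window. Neither window held TGANTCA, the cyclic AMP element TGACGTCA (1.79% of all start sites) or the ZEB element CAGGTG with its complement CACCTG (20.2%). No match says only that these letters are not in these 300 bases.

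Together the 3 E-protein genes had a summed level of 118 and 95.3 FPKM in MIG and 98.8 and 92.5 FPKM in BATF, which overlapped. Tcf3 gave most of it, 77.1% and 68.5% in MIG and 73.5% and 70.3% in BATF. Tcf12 gave 22.3% and 30.8% in MIG and 25.5% and 28.8% in BATF, and Tcf4 less than 1% in each library (0.669% and 0.759% in MIG, 0.950% and 0.927% in BATF). The makeup of the pool overlapped between the groups for Tcf3 and Tcf12. Summed Id2 and Id3 FPKM were 1.47 and 2.20 times the E-protein sum in MIG and 2.02 and 3.07 times in BATF. The groups overlapped in this ratio too, with MIG replicate 2 above BATF replicate 1. These are ratios of mRNA per length and not of protein.

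**Figure D2:**
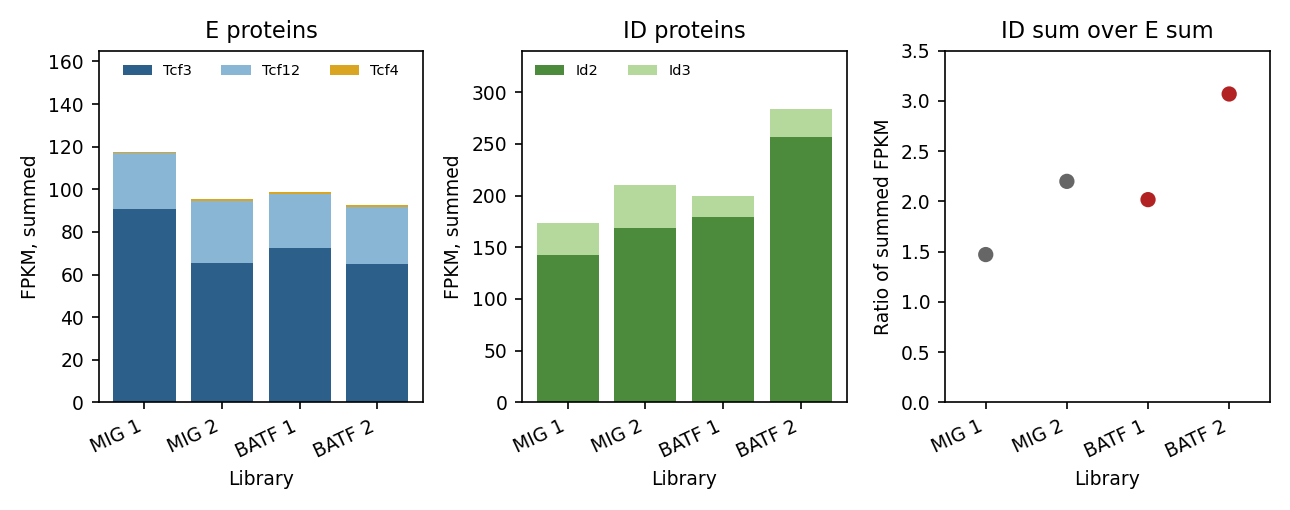
Summed deposited FPKM of the E-protein genes (left) and the ID genes (middle) per library as stacked bars from 0, and the ratio of the ID sum to the E-protein sum (right, grey for MIG and red for BATF). The E-protein sum lies between 92.5 and 118 FPKM in all 4 libraries, while the Id3 part of the ID bar is smaller in both BATF libraries.

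The ZEB genes encode repressors that bind CAGGTG-type E-boxes through 2 zinc finger clusters. Zeb1 stood at 46.8 and 52.9 CPM in MIG and at 46.6 and 48.7 CPM in BATF. The groups overlapped and the log2 fold change was −0.07 ± 0.10 SE, turning to 0.017 without MIG replicate 2. Zeb2 was low, with 80 fragments in each MIG library and 78 and 111 fragments in BATF. Scaled to library size it stood at 3.27 and 3.88 CPM in MIG and at 4.11 and 5.10 CPM in BATF, without overlap (log2 fold change 0.37 ± 0.22 SE). The counting error alone spans 3.08 to 4.83 CPM for MIG replicate 2 and 3.25 to 5.13 CPM for BATF replicate 1 (95% exact Poisson intervals), so these neighbouring libraries were not separable at this depth. Per length, Zeb1 exceeded Zeb2 by 22.2 and 21.1 times in MIG and by 17.6 and 14.8 times in BATF.

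RefSeq lists 4 start sites of Zeb2, and the fourth is shown because its window held 2 matches of TGANTCA, at −189 to −183 and −132 to −126 from the start. It lies at chr2:45110228-45110527, minus strand (GRCm38.p6), with those matches in capitals.
Zeb2 start site 4: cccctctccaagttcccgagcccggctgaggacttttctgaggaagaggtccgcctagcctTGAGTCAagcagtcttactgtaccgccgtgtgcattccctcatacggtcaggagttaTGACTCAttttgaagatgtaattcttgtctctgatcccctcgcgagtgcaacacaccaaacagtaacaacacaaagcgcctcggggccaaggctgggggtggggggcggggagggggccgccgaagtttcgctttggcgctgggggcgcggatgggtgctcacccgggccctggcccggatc
The other 3 windows held 0 such matches, and none of the 4 held an E-box match. The table does not say from which start the fragments came. The promoter table was matched for 5 of the 9 genes (Id2, Id3, Tcf3, Tcf12 and Zeb2), with 10 start sites, and the 1 window of Tcf3 held the E-box match CACTTG at −54 to −49. No window of Msc, Bhlhe40, Zeb1 or Tcf4 was searched, so nothing is said of motifs in their promoters. Tcf4, Tcf12, Zeb1 and Zeb2 passed the threshold under no setting that was run.

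Bhlhe40 encodes a helix-loop-helix repressor, also called DEC1 or STRA13, that is induced on T cell activation and controls cytokine genes. It stood at 88.5 and 116 CPM in MIG and at 149 and 152 CPM in BATF. Both BATF libraries lay above both MIG libraries and close to each other, with a log2 fold change of 0.55 ± 0.13 SE, a factor of 1.47. The distance between the 2 MIG libraries was a factor of 1.31. With all libraries Bhlhe40 missed the threshold in edgeR with the filter on low counts and no block, and in limma on either FPKM scale. DESeq2, edgeR with no filter and edgeR with the replicate number as a block called it. Its log2 fold change ranged from 0.37 to 0.76 with 1 library left out. An overlapping antisense gene, 0610040F04Rik, had 7 or 8 fragments in each library, against 2167 to 3304 for Bhlhe40.

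Msc encodes musculin (MyoR, or ABF-1 in human B cells), a helix-loop-helix repressor that pairs with E proteins. It had 10 fragments in each MIG library and 248 and 126 fragments in the BATF libraries. In CPM these are 0.409 and 0.485 against 13.1 and 5.79. All MIG values were near the bottom of what was tested, and the BATF libraries differed from each other 2.26-fold. The rise was 20.9-fold (log2 fold change 4.38 ± 0.50 SE), the third largest log2 fold change of the 13008 genes tested. With 1 library left out it ranged from 3.69 to 4.86. Limma on log2(FPKM + 1), a scale that shrinks changes of low genes, gave 2.38 and did not call it, while limma on log2(FPKM + 0.1) gave 3.88 and did.

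Msc entered the test through the BATF libraries. The filter on low counts asks for at least 2 libraries above 0.474 CPM (10 fragments at the median library size, before TMM scaling), and MIG replicate 1 was at 0.403. GENCODE M21 places an antisense gene, Gm9947, across Msc, and the table does not list it. No source used here gives the strand setting of the counting, so fragments of Msc and of its antisense partner cannot be told apart. In FPKM, Msc was equal to 0.230% and 0.324% of the E-protein sum in MIG and to 8.50% and 4.09% in BATF, above Tcf4 (0.938 and 0.857 FPKM) and below Tcf12 and Tcf3.

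**Figure D3:**
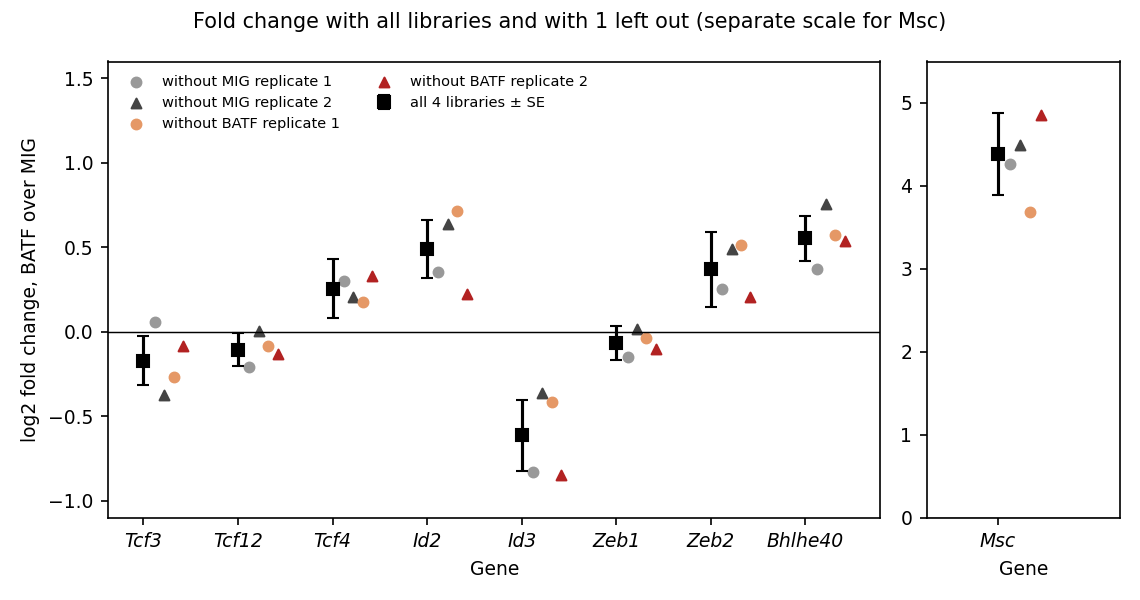
Log2 fold change of BATF over MIG for each gene, with black squares for all 4 libraries (bars are ± SE from edgeR) and small symbols for the fits with 1 library left out, on a separate vertical scale for Msc. Tcf3, Tcf12 and Zeb1 cross 0 when 1 MIG library is left out, while Id2, Zeb2, Tcf4, Bhlhe40 and Msc stay above 0 and Id3 below.

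The level order of the 9 genes, per length, differed between the groups in the places of Bhlhe40, Id3 and Msc. In MIG, from high to low, it was Id2 (142 and 168 FPKM), Tcf3 (90.7 and 65.3), Id3 (30.9 and 41.5), Bhlhe40 (30.4 and 38.5), Tcf12 (26.2 and 29.3), Zeb1 (8.36 and 9.10), Tcf4 (0.787 and 0.723), Zeb2 (0.376 and 0.430) and Msc. Id3 and Bhlhe40 overlapped over the 2 libraries, and the other 7 neighbouring pairs did not. In BATF, Bhlhe40 (49.6 and 51.5 FPKM) stood directly below Tcf3 and Id3 (19.9 and 27.4) below Tcf12 (25.2 and 26.6), with which it overlapped. Msc stood above Tcf4 and Zeb2 there and overlapped with Zeb1 (8.07 and 8.57). Levels of different genes depend on the transcript lengths that the authors' run assumed. In CPM, which drops gene length, the order changed. Tcf3 then stood above Id2 in MIG, Zeb1 stood above Id3 in both groups, and Msc overlapped with Tcf4 in BATF.

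Helix-loop-helix relatives without a leucine zipper or PAS domain, and other E-box zinc finger genes, were mostly silent. Of 30 further helix-loop-helix genes and E-box zinc finger genes, 27 were below 1 CPM in every library, and 7 could be tested. EdgeR called 0 of these 7. Without adjustment 1 had p under 0.05, a lower one, and DESeq2 called 1. Id1, another ID gene, had 0 to 6 fragments in a library, and Lyl1, a partner of E proteins in blood progenitors, had 5 to 13. Bhlhe41, the closest relative of Bhlhe40, stood at 0.776 to 1.24 CPM (0.28 on the log2 scale, edgeR adjusted p = 0.916), and its sign turned without MIG replicate 1 (−0.010). Snai3, a zinc finger repressor of the Snail family, was the gene at p under 0.05. It stood at 26.9 and 22.6 CPM in MIG and at 15.1 and 14.5 CPM in BATF (−0.74 ± 0.14 SE on the log2 scale, edgeR adjusted p = 0.0776). The groups did not overlap, the threshold was missed, and DESeq2 called it.

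Among 28 factors that join the helix-loop-helix to a leucine zipper or a PAS domain, 27 were tested, 1 rose and 0 fell, and the median log2 fold change was −0.03. Without adjustment 6 had p under 0.05, 5 higher (Hif1a, Epas1, Mycn, Mxi1 and Mxd4) and 1 lower (Max), of which Mxi1 and Mxd4, like Epas1 and Mycn, were named after their values were seen. The gene that rose was Hif1a, the oxygen-regulated factor, at 261 and 259 CPM in MIG and 392 and 356 in BATF (0.52 ± 0.08 SE on the log2 scale, edgeR adjusted p = 0.0460). The adjusted p from edgeR was 0.248 with BATF replicate 1 left out and 0.0735 with BATF replicate 2 left out, which ended the call, as did limma on either FPKM scale. The log2 fold change in these fits was 0.45 and 0.59, and 0.51 and 0.52 in limma, and over all alternatives the adjusted p ran from 1.01e-09 to 0.248. Myc, which binds the E-box CACGTG with MAX, stood at 152 and 175 CPM in MIG and 160 and 145 in BATF (−0.10, edgeR adjusted p = 0.885). Max stood at 77.3 and 79.4 CPM against 62.0 and 69.5 (−0.25, edgeR adjusted p = 0.363). Ahr, the aryl hydrocarbon receptor, varied more within MIG (2.94 and 10.8 CPM) than between the groups (2.90 and 5.24 CPM in BATF, −0.73 on the log2 scale, edgeR adjusted p = 0.801), and its sign turned to 0.47 without MIG replicate 2. Epas1 and Mycn lay just outside the threshold. Epas1, which encodes HIF-2alpha, stood at 2.98 and 2.72 CPM in MIG and 9.07 and 6.39 in BATF (1.43 ± 0.24 SE, edgeR adjusted p = 0.0518), and Mycn at 23.5 and 17.5 CPM against 38.7 and 37.5 (0.89 ± 0.16 SE, edgeR adjusted p = 0.0599).

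Of 14 partners and modifiers, which include the CtBP corepressors of ZEB proteins, the ETO family corepressors of E proteins and the enzymes that set ID protein turnover, all 14 were tested and edgeR called 0. At an unadjusted p under 0.05 there were 0, and DESeq2 called 0. Their median log2 fold change was 0.02. Usp1, a deubiquitinase that stabilises ID proteins, stood at 279 and 311 CPM in MIG and 278 and 289 in BATF (−0.06 ± 0.09 SE, edgeR adjusted p = 0.933).

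**Figure D4:**
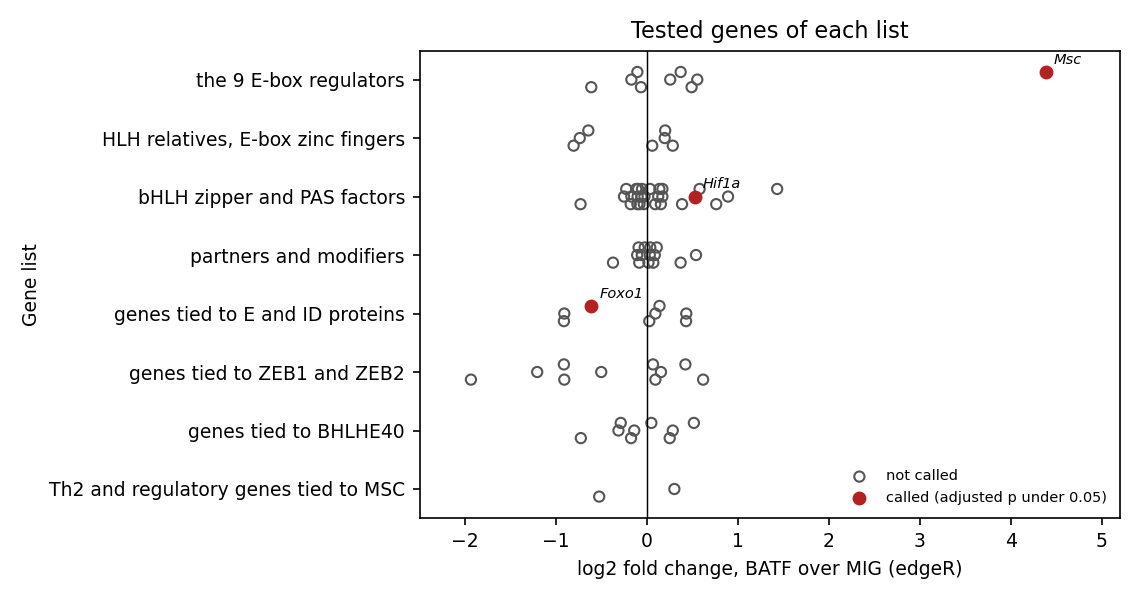
Log2 fold change (BATF over MIG, edgeR) of every tested gene in the 8 lists, 1 row per list, with filled red symbols for genes past the adjusted threshold. Msc, Hif1a and Foxo1 are filled, and most other genes lie between −1 and 1.

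Genes known to be tied to these regulators were counted next. Of 14 lymphocyte genes tied to E and ID proteins, 8 could be tested, 1 fell and 0 rose, with a median log2 fold change of 0.06. The gene that fell was Foxo1, which E2A activates in B cell progenitors, from 225 and 228 CPM in MIG to 146 and 150 in BATF (−0.61 ± 0.08 SE, edgeR adjusted p = 0.0229). The call ended with BATF replicate 1 left out (edgeR adjusted p = 0.0604), with BATF replicate 2 left out (0.0620) and in limma on either FPKM scale. The log2 fold change in these fits was −0.59 and −0.63, and −0.60 and −0.62 in limma, and over all alternatives the adjusted p ran from 3.92e-13 to 0.0657. Without adjustment 3 of the tested genes had p under 0.05, each lower, Foxo1 and Tcf7 among them, the latter named after its values were seen. Tcf7, which encodes TCF-1, stood at 508 and 318 CPM in MIG and 232 and 207 in BATF (−0.91 ± 0.20 SE, edgeR adjusted p = 0.123). Cxcr5, a follicle homing receptor that E proteins and ID proteins control in T cells, had 11 to 19 fragments in a library (0.03, edgeR adjusted p = 0.999). Of 12 genes tied to ZEB1 and ZEB2, 10 could be tested and edgeR called 0. Without adjustment 4 had p under 0.05, 1 higher and 3 lower, and DESeq2 called 1 upward. Among the 3 lower genes were Tcf7, which stands in both lists, and Cx3cr1, and the higher one, also DESeq2's, was Gzmb, the granzyme B gene (2340 and 2741 CPM in MIG, 3118 and 4678 in BATF, 0.62 ± 0.19 SE, edgeR adjusted p = 0.245). Cx3cr1 and Gzmb were named after their values were seen. Klrg1, the marker of terminal effector cells that falls when ZEB2 is lost, had 1 to 7 fragments, and Il2, a classic ZEB1 target, 1 to 3. Cdh1, the E-cadherin gene that ZEB proteins repress in epithelia, is named after its values were seen. It stood at 5.11 and 42.6 CPM in MIG and 2.48 and 9.74 CPM in BATF, so that it differed more between the libraries of a group than between the groups.

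Of 9 genes tied to BHLHE40, all 9 were tested and edgeR and DESeq2 each called 0. Without adjustment 1 had p under 0.05, a lower one. The lower gene was Ifng, named after its values were seen, at 3.27 and 2.43 CPM in MIG and 1.85 and 1.61 in BATF (−0.73 ± 0.28 SE, edgeR adjusted p = 0.400). Il10, which BHLHE40 represses in T cells, stood at 0.572 and 0.680 CPM in MIG and 0.422 and 1.33 in BATF (0.52 ± 0.58 SE, edgeR adjusted p = 0.894), and its sign turned to −0.56 without BATF replicate 2. Csf2, which needs BHLHE40 in helper T cells, had 7 to 20 fragments in a library (−0.31, edgeR adjusted p = 0.954), with a sign that turned to 0.76 without MIG replicate 2. Of 5 T helper type 2 and regulatory genes tied to MSC, 2 could be tested and edgeR and DESeq2 each called 0. Without adjustment 1 had p under 0.05, a higher one. That gene was Gata3, the main factor of type 2 helper cells, at 42.4 and 47.5 CPM in MIG and 50.9 and 59.8 in BATF (0.30 ± 0.12 SE, edgeR adjusted p = 0.402).

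Over the 4 libraries, the profiles nearest to those of Bhlhe40 and Id3 belonged to other genes of low to moderate level. These 2 have the highest and the lowest log2 fold change among the 7 regulators with a mean of at least 5 CPM, a level that Msc (4.94 CPM) just missed. Likeness is the Euclidean distance between log2 CPM profiles after each gene's mean is removed, over 9361 genes. Nearest to Bhlhe40 were Tmbim1 (distance 0.087, 4.62 to 7.58 CPM), March8 (0.089, 6.01 to 10.2 CPM) and Ube2q2 (0.097, 28.8 to 45.6 CPM). Nearest to Id3 were Fgf13 (0.12, 18.2 to 34.8 CPM), Ptpn3 (0.13, 10.6 to 19.6 CPM) and Gpr34 (0.14, 19.6 to 39.8 CPM). With only 4 libraries many genes lie close to any profile.

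Several of the 9 genes are also made by other blood cells, so markers of those cells are given beside them. Of 10 B cell markers, 9 were below 1 CPM in every library, and their sum was 16.0 to 19.6 CPM in MIG and 13.7 to 15.1 CPM in BATF, nearly all of it Cd79b. The defining genes Ms4a1 and Pax5 were between 0 and 0.158 CPM in all 4 libraries. Plasmacytoid dendritic cell markers, the cells in which Tcf4 is highest, summed to 124 to 129 CPM in MIG and 92.7 to 97.0 CPM in BATF, mostly Bst2 and Irf8, which T cells also make, and Siglech was at 0.276 to 0.475 CPM. Myeloid and dendritic markers summed to 30.0 to 34.8 CPM in MIG and 41.6 to 62.2 CPM in BATF, most of it Itgax, and 8 of the 13 were below 1 CPM throughout. CD4 and regulatory T cell markers summed to 35.9 to 42.6 CPM in MIG and 55.0 to 56.8 CPM in BATF, chiefly Zbtb7b and Ikzf4. Foxp3, the regulatory T cell factor, named after its values were seen, stood at 1.31 and 2.09 CPM in MIG and 0.896 and 1.42 in BATF. NK and gamma-delta T cell markers, of which 6 of 8 were in the table and all 6 below 1 CPM, summed to 1.50 to 1.76 CPM in MIG and 1.15 to 2.00 CPM in BATF. EdgeR called 0 genes of these 5 lists, at an unadjusted p under 0.05 there were 3 higher and 4 lower, and DESeq2 called 2, Itgax and Zbtb7b. Named after their values were seen, these stood at 18.1 and 21.6 CPM in MIG and 34.4 and 31.5 in BATF for Itgax, the CD11c gene (0.73 ± 0.14 SE, edgeR adjusted p = 0.0716), and at 23.0 and 17.9 CPM against 44.2 and 34.9 for Zbtb7b, which encodes the CD4 lineage factor ThPOK (0.95 ± 0.17 SE, edgeR adjusted p = 0.0658). The other genes at that level were H2-Ab1, higher, and Cd79b, Irf8, Ccr9 and Bst2, lower. H2-Ab1, a class II antigen presentation gene, stood at 3.15 and 0.777 CPM in MIG and at 14.1 and 2.85 CPM in BATF (edgeR adjusted p = 0.418). BATF replicate 1, the library with the most Msc, thus had the most H2-Ab1, and it also had the most Batf. Of the 5 tested myeloid and dendritic markers, Itgax and Cd68 (3.43 CPM) were highest in BATF replicate 1 too. Itgam (7.68 CPM) and Cd74 (1.72 CPM) were highest in MIG replicate 1, where Msc was almost silent. The part of the myeloid and CD4 markers in the values of Msc was not tested.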

How the data were processed

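Poly(A) RNA libraries (2 MIG, 2 BATF) were mapped and quantified by the authors. TopHat2 2.1.1, Cufflinks 2.2.2, Cuffdiff and the build mm9 come from the submitters' processing notes, while no source used here gives the annotation or the strand setting. Per the file headers, the deposited table holds estimated counts (raw fragments per gene and library) and FPKM scaled by the authors' run. Its replicates 0 and 1 were read as the titles' 1 and 2, which only names the libraries, since no label settles which library of a group is which. Libraries held 19004726 to 24795707 fragments. The estimated counts, 97.6% of them whole, were rounded, filtered (filterByExpr, 13008 of 24312 genes), TMM-scaled (factors 0.988 to 1.01) and tested with edgeR 4.0.16 in R 4.3.3 by the quasi-likelihood test with Benjamini-Hochberg adjustment over all genes tested, at 0.05. The test was also run on simulated counts whose spread depended only on expression level. Gene-specific spread and replicate effects were not simulated, so that run says nothing about them. FPKM were used for levels between genes. The 9 genes and all lists were chosen with earlier results of these data known. Named genes were the 9, Batf, 16 set genes, every list gene called, and the 3 nearest profiles (Euclidean distance of centred log2 CPM, prior count 2) to the members of at least 5 CPM with the largest and smallest log2 fold change. Others are marked in the text. Alternatives were DESeq2 1.42.0, its size factors, no filter, limma 3.58.1 on log2(FPKM + 1) and log2(FPKM + 0.1), a replicate block, leaving out each library, and CPM for FPKM. Promoters came from RefSeq (GRCm38.p6), and gene overlaps from GENCODE M21. Poisson intervals cover counting error only. Some results are not reported here.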

Additional observations from a re-analysis of the deposited data

How the results depend on the processing

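Leaving out 1 library assumes that the lone library varies like the other group, and the number of genes called then ran from 248 to 589 (251 and 589 with MIG replicate 1 or 2 left out, 275 and 248 with BATF replicate 1 or 2 left out), against 142 with all. Of those 142 genes, 127, 142, 127 and 116 were called again in these 4 fits. Of the 9 regulators 1 to 4 were called, with Id2, Tcf3 (lower) and Bhlhe40 joining Msc without MIG replicate 2 and Id2 without BATF replicate 1. The ranges were 0 to 1 for the helix-loop-helix and zinc finger list, 2 to 4 for zipper and PAS factors, 0 to 3 for genes tied to E and ID proteins and 0 to 3 for those tied to ZEB1 and ZEB2. DESeq2 called 349 genes, edgeR with no filter 349, and limma 44 and 81 with pseudocounts of 1 and 0.1. All 142 were among DESeq2's calls and all 44 of limma's were among the 142. Of the 9 regulators, DESeq2 and the fit with no filter called 2 (Bhlhe40 and Msc) and limma with a pseudocount of 1 called 0. In the helix-loop-helix list DESeq2 and no filter called 1. Among zipper and PAS factors they called 4, DESeq2's size factors in edgeR 2 and limma 0. Among genes tied to E and ID proteins no filter called 3 and limma 0, and among those tied to ZEB1 and ZEB2 DESeq2 called 1 and no filter 3. The cause of these shifts was not tested.

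The replicate numbers were not taken to pair the libraries, since the labels state no shared origin and there are only 2 pairs (correlation of same-numbered deviations 0.18). With the replicate number as a block, which leaves 1 residual degree of freedom per gene, edgeR called 1504 of the 13008 genes. These included 4 of the 9 regulators (Id2, Bhlhe40 and Msc higher, Id3 lower), 1 helix-loop-helix gene, 8 zipper and PAS factors, 3 genes tied to E and ID proteins, 5 tied to ZEB1 and ZEB2 and 1 tied to MSC.

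For the 9 regulators and the genes named by rule, which were refitted under each alternative, signs turned where 1 library was left out and under no other alternative. Of the genes named after their values were seen, Cdh1 ran from −3.25 to 0.27 with 1 library left out. Over these fits the log2 fold change ran from −0.37 to 0.058 for Tcf3 (above 0 without MIG replicate 1). Without MIG replicate 2 it rose above 0 for Tcf12 (−0.21 to 0.0036), Zeb1 (−0.15 to 0.017), Myc (−0.19 to 0.00098), Ahr (−1.39 to 0.47), Usp1 (−0.13 to 0.016) and Csf2 (−0.97 to 0.76). It lay below 0 for Bhlhe41 without MIG replicate 1 (−0.010 to 0.62), for Cxcr5 without MIG replicate 1 or BATF replicate 2 (−0.37 and −0.26, up to 0.52) and for Il10 without BATF replicate 2 (−0.56 to 1.09). With CPM in place of FPKM, which drops gene length, the mean ID to E-protein ratio was 0.531 in MIG and 0.756 in BATF. By library it was 0.436 and 0.625 in MIG and 0.603 and 0.909 in BATF, so the groups overlapped. In CPM the ID sum thus lay below the E-protein sum in each library, whereas in FPKM it lay above. The mean Tcf3 share was 65.1% and 64.0%, and the mean Zeb1 to Zeb2 ratio 14.0 and 10.4. Depth limits Zeb2, with 78 to 111 fragments, Tcf4, with 108 to 136, and Msc in MIG, with 10 per library.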
